A study of Mus musculus with 11 samples.

Results

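Common lymphoid progenitors (CLP) were compared with lymphoid-primed multipotent progenitors (LMPP), both sorted from bone marrow of C57BL/6J mice. The comparison used 4 of the 11 Affymetrix arrays of the study, the 2 titled CLP and the 2 titled LMPP, and all 19938 genes with a probe set of their own. The other 7 arrays hold haematopoietic stem cells (HSC, 2 arrays) from marrow, and early thymic progenitors (2 arrays, ETP) with the later double negative stages DN2 (1 array) and DN3 (2 arrays), labelled as thymus. The labels give 1 strain, no genotype other than the strain, no treatment and no age for any population. The sort gates, and whether the replicates of a population came from separate mice or pools, were not stated in any label, so a p-value may measure technical spread only. Values are log2 intensities, on which a difference of 1 is a 2-fold change.

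LMPP are early progenitors that have largely lost the potential to form platelets and red cells but still give rise to myeloid and lymphoid cells. CLP are later progenitors, defined by the interleukin 7 receptor, that give rise to B cells, natural killer cells, innate lymphoid cells and some dendritic cells, and to T cells when placed in a thymus. In the B lineage the transcription factors E2A, EBF1, FOXO1 and PAX5 switch on, in sequence, the recombinase, the parts of the pre-B cell receptor and its adaptors.

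Marker genes were set beside the labels. The markers were chosen with earlier results of these data known, so their counts are no independent check of the labels. Of the 8 marker genes of CLP, 5 were called higher in CLP (Ebf1, Ly6d, Rag1, Il7r and Rag2), and Flt3, Dntt and Cd27 were not called. Flt3, Dntt and Cd27 also stand among the LMPP markers, so they could not tell the populations apart. Of the 6 LMPP markers measured, Cd34, the sialomucin of progenitors, and Kit, the receptor for stem cell factor, were called lower in CLP. Cd34 lost its call without LMPP replicate 2, and Kit without any 1 of the CLP, LMPP, ETP and DN3 arrays. Flt3, the cytokine receptor by which both populations are commonly sorted, stood at 10.50 and 10.66 in CLP and at 10.48 and 10.75 in LMPP, so the groups overlapped (log2 difference -0.03, 95% interval -0.35 to 0.29). Il7r, Flt3, Kit and Cd34 are common sort markers, and a gene used in the gate differs, or is held alike, through the sort itself. Of the markers of committed pro-B cells, 3 of 7 were called higher in CLP (1 without LMPP replicate 2), and of those of plasmacytoid dendritic cells 2 of 5. None of the 59 markers measured of mature B, plasma, natural killer, mature T, neutrophil and monocyte, macrophage, erythroblast, megakaryocyte and stromal or endothelial cells was called in limma, and 3 of them had an unadjusted p under 0.05 (Trat1, Lyz2 and Pf4). Their mean level per list and array ran from 4.78 to 6.04 in CLP and from 4.80 to 6.29 in LMPP. Single values of 1015 olfactory receptor genes, which blood cells hardly express, had a median of 4.15 and a 95th percentile of 5.93. No detection calls were used. Where the lower level of a gene lies in that range, its fold is an uncertain measure of the ratio of transcripts, also where this is not repeated below. A mean of a list is not the level of a single gene. In each of these lists single levels exceeded 5.93 in CLP or LMPP, up to 8.71 for neutrophils and monocytes. So that range does not hold all of the 59 markers. Single calls appeared among them only when an array was left out, 1 mature T gene higher without either ETP replicate and 1 megakaryocyte gene lower without LMPP replicate 1. In such sorted bulk samples, fewer cells of a type and less RNA per cell cannot be told apart.

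In limma, 228 of the 19938 genes passed an adjusted p under 0.05 (1.14%, against 8.5% with an unadjusted p under 0.05), 120 of them higher in CLP (0.602%) and 108 lower (0.542%). The 4 arrays of every one of the 228 were separated without overlap, as they were for 14.5% of all genes in the direction of CLP and 19.1% in the other. Of the calls, 136 were at least 2-fold (0.682% of all genes), 78 higher and 58 lower, and at least 4-fold differences 16 higher and 6 lower. After centring each array on its median the same test called 115 higher and 66 lower, which moved the share of higher calls to 63.5%, against 52.6% with the deposited values. Leaving out 1 array moved the number of calls to 125 (CLP replicate 1 left out), 135 (CLP replicate 2), 139 (LMPP replicate 1) and 98 (LMPP replicate 2), against 228 with all arrays. In every one of the 11 fits that left out 1 array, 75 genes were called, 46 higher and 29 lower in CLP. These 11 fits are not separate checks. Leaving out the lone DN2 array cannot change this comparison. Leaving out either replicate of HSC, ETP or DN3 gives the same result as leaving out its partner. Just inside the threshold lay Slpi (limma adjusted p = 0.0485), Id2 and Il31ra (0.0480 each). Just outside it lay Slc9a7 and Rnf13 (0.0513 each) and Hes1 (0.0520).

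**Figure D1:**
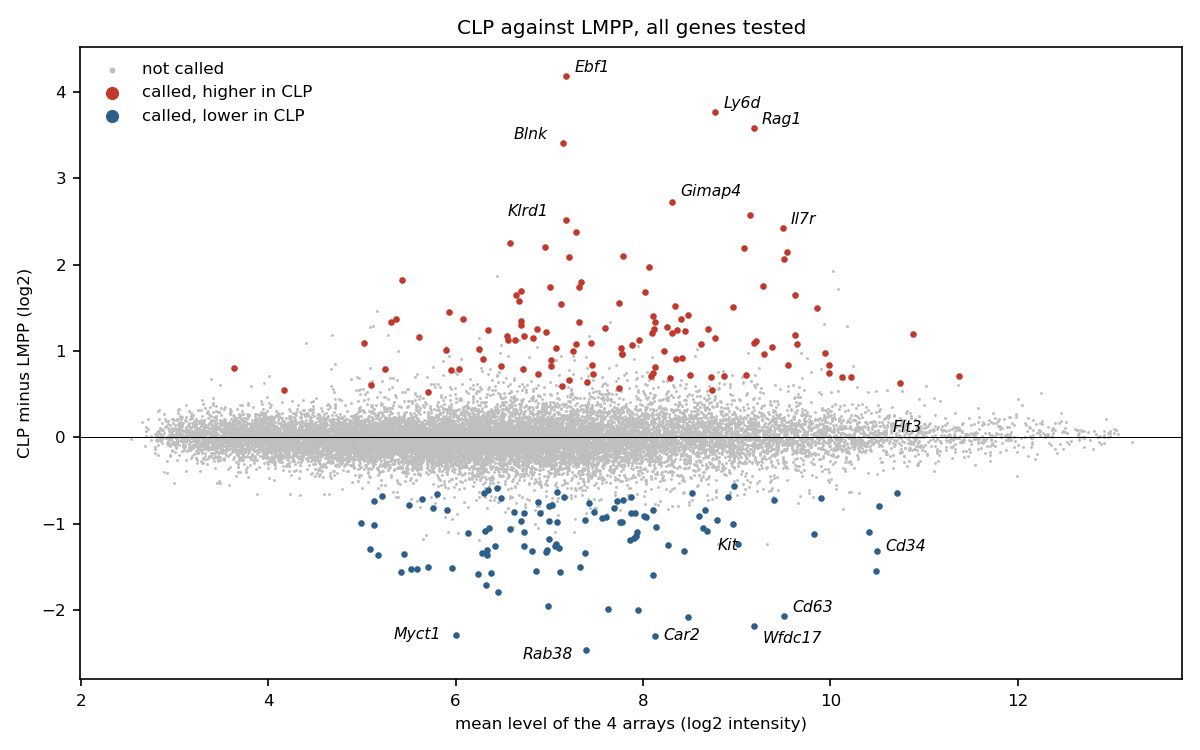
Log2 difference of CLP minus LMPP for the 19938 genes (vertical axis) against the mean level of the 4 arrays (horizontal axis, log2 intensity), with the 120 genes called higher in red and the 108 called lower in blue. The named risers reach a log2 difference of 4.19 (Ebf1), while Flt3 lies at -0.03.

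The 3 highest differences were those of Ebf1, Ly6d and Rag1, the first from the B lineage lists and the other 2 also high in thymic DN3 cells, where Ly6d averaged 10.62 and Rag1 11.54. Ebf1, which encodes the factor that specifies the B lineage, stood at 9.32 and 9.22 in CLP, against 5.43 and 4.74 in LMPP, an 18.2-fold higher level (log2 difference 4.19, 95% interval 3.69 to 4.69, adjusted p = 1.67e-05). Both LMPP levels of Ebf1 lie in the range of the olfactory receptor genes, so the size of its fold is uncertain. Ly6d, a GPI-anchored surface protein that subdivides CLP, stood at 10.63 and 10.68 in CLP, against 6.83 and 6.94 in LMPP. Rag1, the catalytic part of the antigen receptor recombinase, stood at 10.85 and 11.10 in CLP, against 7.35 and 7.43 in LMPP. In all 3 genes both CLP arrays lay far above both LMPP arrays, and each was called in all 11 fits that left out an array. Genes with other known roles followed among the 20 highest. Gimap4, a GTPase of lymphocytes, was 6.60-fold higher (adjusted p = 0.000113), Myl4, an atrial myosin light chain, 5.96-fold (1.90e-05), Gbp8, an interferon-inducible GTPase, 5.19-fold (0.000199), and Slamf6, a receptor of the SLAM family on lymphocytes, 4.78-fold (0.00353). Mzb1, an endoplasmic reticulum protein that helps immunoglobulin assembly, stood at 8.27 and 8.23 in CLP, against 6.15 and 6.18 in LMPP (4.25-fold, adjusted p = 0.000212). Cmah, which makes N-glycolylneuraminic acid, was 4.19-fold higher (0.00351), and Gphn, the scaffold protein gephyrin, which also makes the molybdenum cofactor, 3.37-fold (4.59e-05). Of the 20 highest only Sh2d1b1, an adaptor of SLAM family receptors, and Klrb1f, a lectin-like receptor, lost their calls when 1 array was left out, the first without CLP replicate 2 or LMPP replicate 2 and the second without CLP replicate 1 or LMPP replicate 2.

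**Figure D2:**
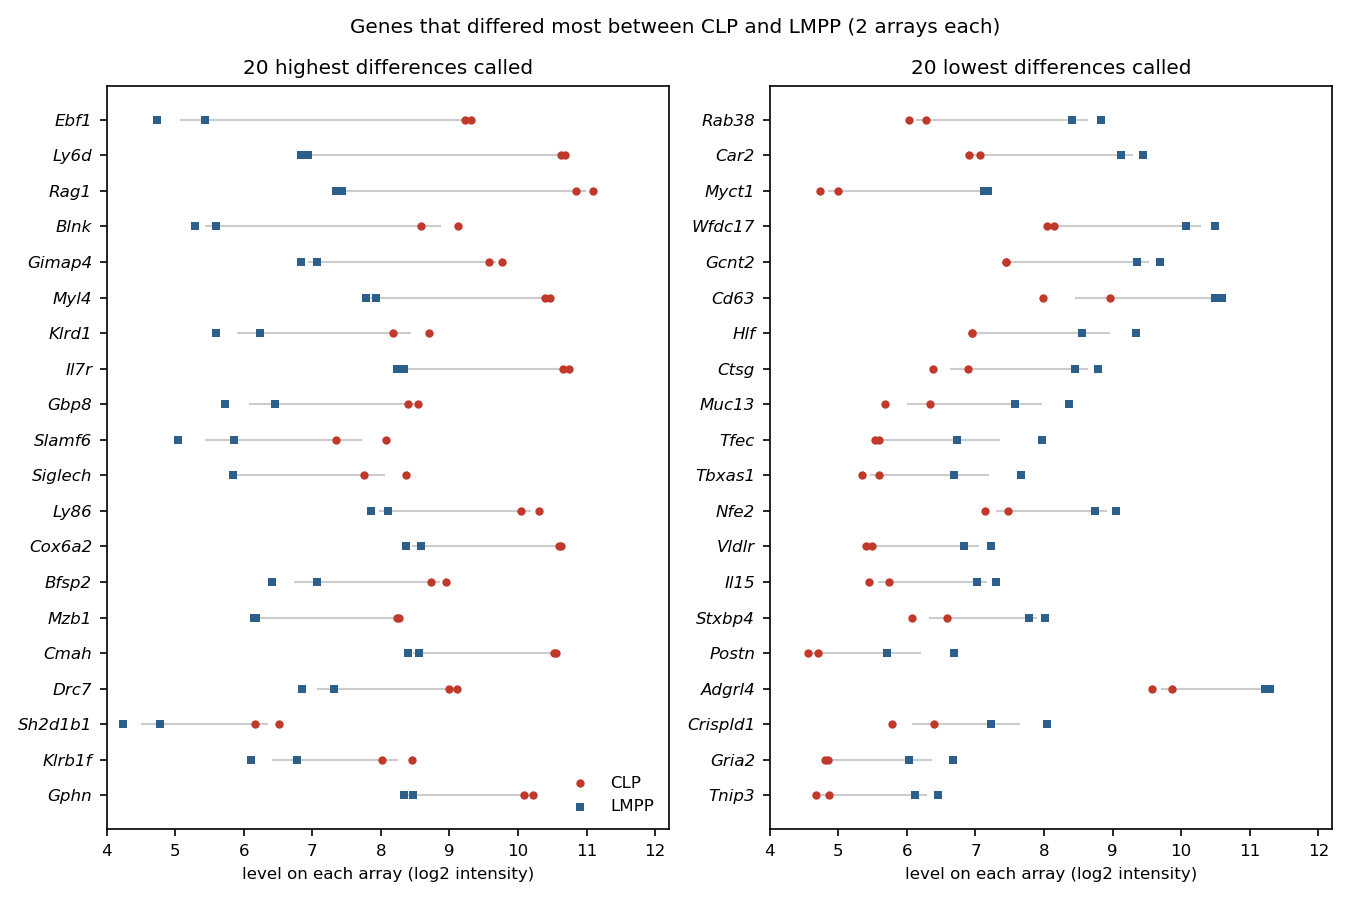
Levels on each array (log2 intensity) of the 20 highest and the 20 lowest called differences, with CLP as red circles and LMPP as blue squares, 2 arrays each, and grey lines joining the means. In each gene the CLP arrays lie on one side of the LMPP arrays; Ebf1 has the widest gap of the risers and Rab38 of the genes lower in CLP.

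The list counts from here on stand beside the shares over all genes, 1.14% called in limma and 8.5% with an unadjusted p under 0.05. Among 19 transcription factors of the B lineage 3 were called higher and none lower. Their median log2 difference was 0.32, against -0.02 over all genes. Without CLP replicate 2, or any LMPP, ETP or DN3 array, Ebf1 was the 1 call left. Foxo1, a forkhead factor that drives Rag and Il7r transcription in B progenitors, stood at 7.44 and 7.42 in CLP, against 6.85 and 6.82 in LMPP (1.52-fold higher, adjusted p = 0.0322), a small but well separated difference. Its call was lost without any 1 of the CLP, LMPP, ETP and DN3 arrays, with array weights and with an intensity trend and robust prior. Irf8, a factor of B cells, monocytes and dendritic cells, stood at 7.93 and 9.12 in CLP, against 6.88 and 7.05 in LMPP, and the CLP replicates differed from each other by more than the lower one differed from LMPP. Its log2 difference of 1.56 (adjusted p = 0.0457) was 2.15 without CLP replicate 1 and 0.96 without CLP replicate 2, and the call was lost without CLP replicate 2 or any HSC, LMPP, ETP or DN3 array and after median centring. Pax5, which commits cells to the B lineage, had 6.67 and 6.92 in CLP, against 6.26 and 5.92 in LMPP, with no overlap but no call (log2 difference 0.71, adjusted p = 0.0556). Tcf3, which encodes the E2A proteins, stood at 7.26 and 7.34 in CLP and at 7.30 and 7.58 in LMPP, with overlap (95% interval of the log2 difference -0.43 to 0.15). The promoter of Foxo1 is shown because it holds the palindromic motif TCCC, any 2 bases, GGGA, bound by EBF1. The window covers 250 bases before to 50 after the annotated start (chr3:52268087-52268386, + strand, GRCm38.p6, sequence from RefSeq), with the motif in capitals.
Foxo1: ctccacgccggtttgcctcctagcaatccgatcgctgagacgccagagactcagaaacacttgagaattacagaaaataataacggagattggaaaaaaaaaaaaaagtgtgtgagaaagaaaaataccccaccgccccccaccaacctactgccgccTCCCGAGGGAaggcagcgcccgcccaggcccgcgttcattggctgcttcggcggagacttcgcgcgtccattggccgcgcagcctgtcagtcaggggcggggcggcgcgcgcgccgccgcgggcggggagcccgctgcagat
That motif occurred in 0.904% of 32851 RefSeq promoter windows of this size, and in 1.01% of the windows of the genes tested. The windows of Ebf1 and Irf8, the other called genes of this list, did not hold it. Nor did those of Rag1, Rag2, Il7r, Cd79a, Vpreb1 and Vpreb2. Of the 126 windows of genes called higher, 5 held the motif (3.97%), those of Dpp4, Foxo1, Tspan2, Ceacam1 and Tmem108. Of the 113 windows of genes called lower, 2 held it (1.77%). The 126 windows belong to 92 genes and the 113 to 82, since a gene with several annotated starts has several windows. The other called genes had no window. A match of letters does not show that the factor binds there.

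Of 20 measured genes of the pre-B cell receptor and B cell receptor signalling, 6 were called higher in CLP and none lower (median log2 difference 0.54, against -0.02 over all genes), and 10 had an unadjusted p under 0.05, all higher. Blnk, the adaptor that couples the kinase Syk to calcium signalling, stood at 8.59 and 9.12 in CLP, against 5.29 and 5.60 in LMPP (10.6-fold higher, adjusted p = 1.67e-05). Its LMPP levels lie in the range of the olfactory receptor genes, so the size of the fold is uncertain. Igll1, the lambda 5 part of the surrogate light chain, stood at 8.28 and 7.47 in CLP, against 6.18 and 6.09 in LMPP (3.34-fold, adjusted p = 0.00455). Vpreb3, which binds immunoglobulin chains during their assembly, stood at 8.43 and 7.95 in CLP, against 6.47 and 6.42 in LMPP (3.34-fold, adjusted p = 0.000953). CLP replicate 1 had the higher Igll1 and Vpreb3, and CLP replicate 2 the higher Blnk. Vpreb2, the other surrogate light chain part, was 2.52-fold higher (adjusted p = 0.00348), while its near-identical copy Vpreb1 stood at 11.08 and 10.91 in CLP, against 8.99 and 9.15 in LMPP, without a call (log2 difference 1.93, 95% interval 0.92 to 2.94, adjusted p = 0.0953). Probes may not separate these copies, so the value of each is uncertain. Blk, a Src family kinase, was 2.25-fold higher (adjusted p = 0.0236) and Cd79b, a signalling chain of the receptor, 1.64-fold (0.0108). Cd79a, its partner chain, stood at 6.32 and 4.92 in CLP and at 5.01 and 4.66 in LMPP, so the groups overlapped. Leaving out LMPP replicate 2 reduced the 6 calls to 3, with Igll1, Blk and Cd79b lost. The call of Blk was also lost without LMPP replicate 1 or any CLP or DN3 array, and that of Cd79b without either CLP replicate.

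The promoters of the 3 called genes with the highest differences in this list and an entry in the RefSeq table are shown, with the E-box CANNTG bound by E2A and related factors in capitals (windows as for Foxo1, GRCm38.p6). Blnk lies at chr19:40994172-40994471 on the - strand, Igll1 at chr16:16863936-16864235 on the - strand and Vpreb3 at chr10:75948050-75948349 on the + strand.
Blnk: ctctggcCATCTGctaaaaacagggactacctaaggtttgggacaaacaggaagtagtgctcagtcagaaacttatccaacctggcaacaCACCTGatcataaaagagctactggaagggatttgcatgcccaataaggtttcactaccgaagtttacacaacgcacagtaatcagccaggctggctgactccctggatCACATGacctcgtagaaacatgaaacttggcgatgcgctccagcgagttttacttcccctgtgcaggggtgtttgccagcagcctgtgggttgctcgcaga
Igll1: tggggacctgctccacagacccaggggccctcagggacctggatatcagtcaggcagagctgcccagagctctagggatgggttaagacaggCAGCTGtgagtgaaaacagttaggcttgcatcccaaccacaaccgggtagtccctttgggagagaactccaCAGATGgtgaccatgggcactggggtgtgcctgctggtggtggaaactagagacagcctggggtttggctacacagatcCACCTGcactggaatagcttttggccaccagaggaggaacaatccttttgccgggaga
Vpreb3: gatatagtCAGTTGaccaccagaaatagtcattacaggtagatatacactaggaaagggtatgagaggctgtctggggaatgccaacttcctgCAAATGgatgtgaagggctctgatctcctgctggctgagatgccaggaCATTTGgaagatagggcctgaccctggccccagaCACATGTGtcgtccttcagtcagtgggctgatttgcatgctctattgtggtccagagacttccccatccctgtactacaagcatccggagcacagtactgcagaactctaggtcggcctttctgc
Blnk and Igll1 held 3 E-boxes each and Vpreb3 held 5, of which the last 2 overlap each other, and none of the 3 windows held the EBF1 motif. The window of Vpreb1, which was not called, held 1 E-box and is not shown. With 2 free bases the E-box is common: it stood in 72.3% of all promoter windows and in 68.3% of those of the genes tested. The share was 84.9% of the 126 windows of genes called higher and 62.8% of the 113 of genes called lower. These are counts of letters and not of bound sites.

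Among 15 genes of recombination and end joining 3 were called higher and none lower (median 0.12). Rag2, the partner of Rag1, stood at 9.0 and 9.18 in CLP, against 7.84 and 7.59 in LMPP (2.59-fold higher, adjusted p = 0.00153). Rag1, whose levels are given above, was 12.0-fold higher (adjusted p = 7.21e-06). Xrcc6, which encodes Ku70, a protein that holds broken DNA ends, was 1.79-fold higher (adjusted p = 0.0141), a call lost without either CLP replicate or LMPP replicate 1. Dntt, the template-free polymerase of receptor joints, stood at 12.47 and 12.53 in CLP, against 12.00 and 11.98 in LMPP, near the top of the scale, and was not called (95% interval of the log2 difference 0.18 to 0.84). The other end joining genes, among them Prkdc, Lig4 and Xrcc4, had log2 differences between -0.39 and 0.42.

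Of 30 cytokine receptor genes 2 were called higher in CLP and 3 lower, with a median log2 difference of 0.02. Il7r, the chain that receives interleukin 7, stood at 10.75 and 10.66 in CLP, against 8.33 and 8.23 in LMPP (5.38-fold higher, adjusted p = 6.75e-05), and its call held in every fit with 1 array left out. Il10ra, the interleukin 10 receptor chain, was 1.73-fold higher (adjusted p = 0.0183), a call lost without any CLP or LMPP array, which left 1 higher call. Csf3r, which receives granulocyte colony-stimulating factor, stood at 5.57 and 5.80 in CLP, against 6.71 and 7.26 in LMPP (2.46-fold lower, adjusted p = 0.00490). Kit stood at 8.19 and 8.10 in CLP, against 9.13 and 9.33 in LMPP (2.12-fold lower, adjusted p = 0.0452), and Il12rb2, an interleukin 12 receptor chain, was 2.08-fold lower (adjusted p = 0.0424). The 3 lower calls became 0 without CLP replicate 1 and 1 without LMPP replicate 2 or any ETP or DN3 array, and median centring left only Csf3r. Csf1r, the receptor for macrophage colony-stimulating factor, stood at 6.03 and 6.00 in CLP and at 6.05 and 5.95 in LMPP, so the groups overlapped (95% interval of the log2 difference -0.25 to 0.28). In 17 genes of JAK and STAT signalling 1 was called: Socs2, a feedback inhibitor of cytokine receptors, stood at 7.56 and 7.37 in CLP, against 5.89 and 5.76 in LMPP (3.13-fold higher, adjusted p = 0.00125), although its second probe set showed a log2 difference of 0.42.

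The 20 surface genes of lymphoid progenitors held 3 calls, all higher and all kept in every fit with 1 array left out (median 0.32). Besides Ly6d, these were Ly86 and Lifr. Ly86 (MD-1), the secreted partner of the Toll-like receptor relative Cd180, stood at 10.30 and 10.05 in CLP, against 8.11 and 7.85 in LMPP (4.57-fold, adjusted p = 8.05e-05), while Cd180 itself was not called (log2 difference 0.36). Lifr, the receptor for leukaemia inhibitory factor, stood at 5.49 and 5.65 in CLP, against 4.38 and 4.57 in LMPP (2.14-fold, adjusted p = 0.00158), with both levels in the range of the olfactory receptor genes. Il7r is 1 of the markers by which CLP are commonly sorted. The gates were not stated, so whether Ly6d, Ly86 or Lifr served in them is not known.

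**Figure D3:**
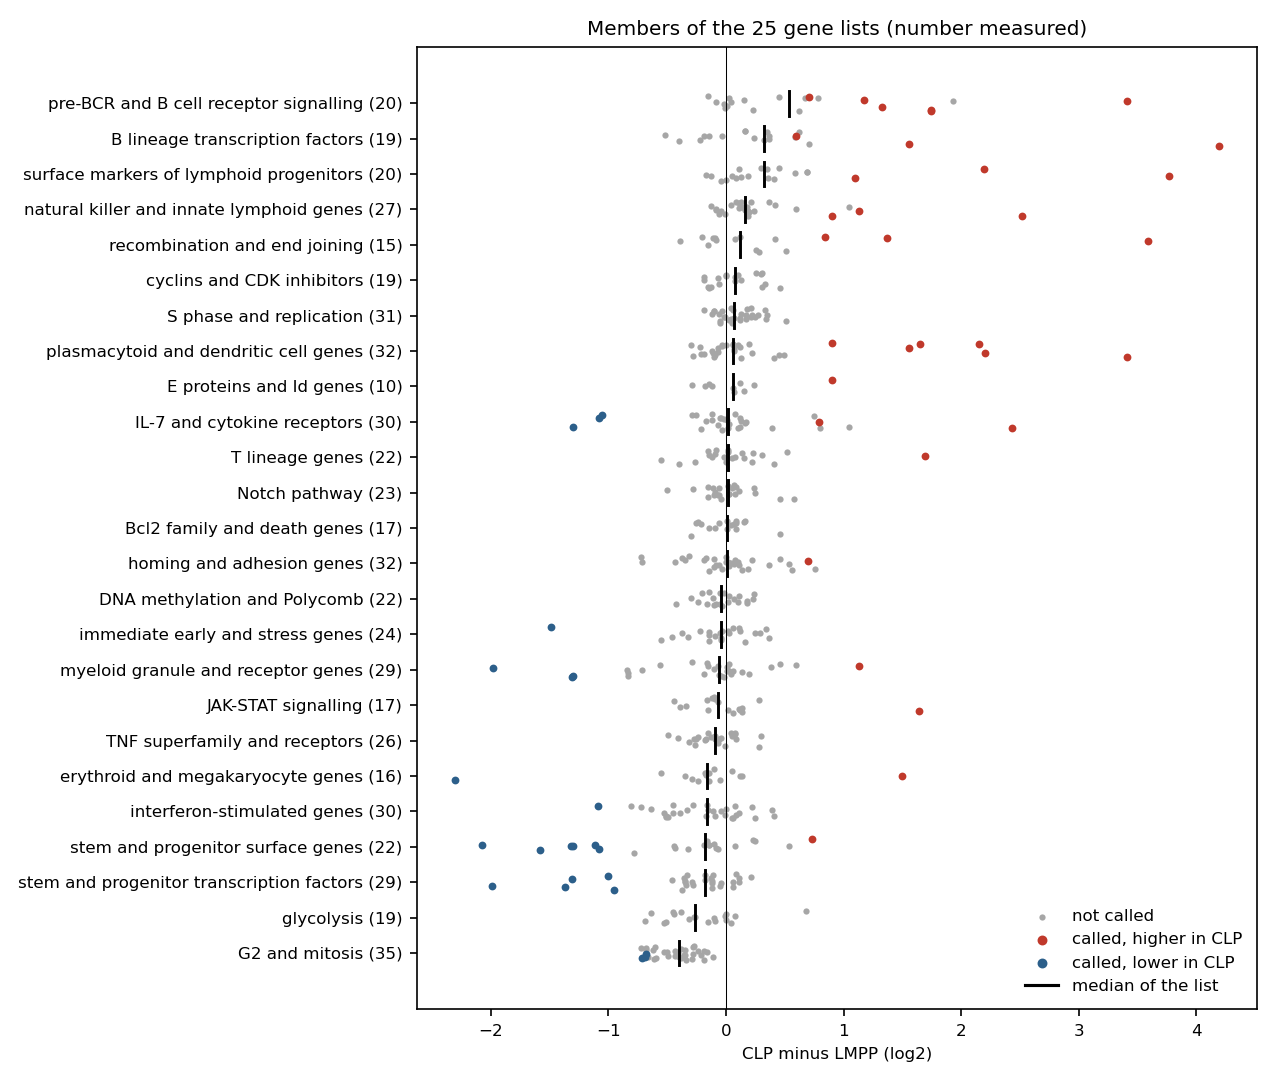
Log2 difference of CLP minus LMPP for each measured member of the 25 gene lists (points, with the number measured in parentheses), red where called higher, blue where called lower and grey otherwise, and a black bar at each list's median. The medians run from -0.40 for G2 and mitosis to 0.54 for pre-BCR and B cell receptor signalling, and most members of every list lie between -1 and 1.

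The genes called lower in CLP included factors of stem cells and early progenitors. Of 29 such transcription factors 5 were called lower and none higher (median -0.18), and 23 of the 29 differences were negative. Hlf, a bZIP factor of stem cells, stood at 6.95 on both CLP arrays, against 8.55 and 9.34 in LMPP (3.98-fold lower, adjusted p = 0.00231). Mecom, the zinc finger factor Evi1 of long-lived stem cells, stood at 5.57 and 5.75 in CLP, against 6.90 and 7.15 in LMPP (2.58-fold lower, adjusted p = 0.000763), and its second probe set differed by -1.74. Ikzf2, which encodes Helios of the Ikaros family, was 2.49-fold lower (adjusted p = 0.000706). Hlf averaged 8.95 in LMPP and 8.62 in HSC, and Mecom 7.02 in LMPP and 7.06 in HSC. Meis1, a homeobox partner of Hox proteins, was 1.93-fold lower (adjusted p = 0.0375), and Lmo2, an adaptor of the Tal1 complex, 2.00-fold lower (0.0435). Meis1 lost its call without any CLP, LMPP, ETP or DN3 array and Lmo2 without any CLP, LMPP, HSC or ETP array, so that the 5 calls became 3 without any CLP, LMPP or ETP array, as they did after median centring. Hoxa9 (log2 difference -0.28), Runx1 (-0.05), Erg (-0.11) and Myc (-0.12), which act in the same progenitors, were not called.

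Of 22 surface genes of stem cells and progenitors 6 were called lower and 1 higher (median -0.18). Cd63, a tetraspanin of granules and lysosomes, stood at 8.96 and 7.98 in CLP, against 10.49 and 10.60 in LMPP (4.21-fold lower, adjusted p = 0.00271). Vldlr, a lipoprotein and reelin receptor, stood at 5.49 and 5.41 in CLP, against 6.84 and 7.22 in LMPP (2.98-fold lower, adjusted p = 0.00107). Cd34 stood at 9.65 and 10.04 in CLP, against 11.08 and 11.24 in LMPP (2.49-fold lower, adjusted p = 0.00380). On both CLP arrays Cd34 thus remained well above the median of all probe sets. Angpt1, the ligand of the Tie2 receptor, was 2.16-fold lower (adjusted p = 0.00158) and Emcn, the sialomucin endomucin, 2.47-fold lower (0.00912). Art4, which carries the Dombrock blood group, was the 1 gene called higher (1.66-fold, adjusted p = 0.0452), and that call was lost without any 1 array other than LMPP replicate 1 and DN2, with array weights, after median centring and with an intensity trend and robust prior. Without LMPP replicate 2 the 6 lower calls became 3, with Cd34, Emcn and Kit lost; Emcn also lost its call without CLP replicate 2, and Kit without either CLP replicate, LMPP replicate 1 or any ETP or DN3 array. Cd34 and Kit may be part of the gate.

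The 20 lowest differences were led by Rab38, a small GTPase of lysosome-related organelles, which stood at 6.28 and 6.03 in CLP, against 8.41 and 8.83 in LMPP (5.52-fold lower, adjusted p = 6.75e-05). Car2, a carbonic anhydrase of red cell and other lineages, stood at 7.06 and 6.90 in CLP, against 9.12 and 9.45 in LMPP (4.93-fold lower, adjusted p = 4.19e-05). Myct1, a small membrane protein of stem cells and endothelium, stood at 4.99 and 4.73 in CLP, against 7.12 and 7.18 in LMPP (4.88-fold lower, adjusted p = 4.59e-05), and the CLP level lies within the range of the olfactory receptor genes. Gcnt2, which branches poly-N-acetyllactosamine chains, was 4.22-fold lower (adjusted p = 0.000125) and Nfe2, a factor of megakaryocytes and red cells, 3.01-fold lower (0.00296). Adgrl4, an adhesion receptor of endothelium and progenitors, was 2.92-fold lower (adjusted p = 0.000641), with 9.87 and 9.57 in CLP, against 11.30 and 11.23 in LMPP. Muc13, a membrane mucin, was 3.88-fold lower (adjusted p = 0.00490). Il15, the cytokine that natural killer cells need, was 2.97-fold lower (adjusted p = 0.00392), a call lost without LMPP replicate 2. Tfec, a relative of Mitf, had 5.53 and 5.59 in CLP, against 6.73 and 7.97 in LMPP, and its log2 difference of -1.79 (adjusted p = 0.0412) became -2.41 when LMPP replicate 1 was left out and -1.17 when LMPP replicate 2 was. The Tfec call was lost without either CLP replicate, LMPP replicate 2 or any ETP or DN3 array, and after median centring or a second quantile normalization. Tbxas1, the thromboxane synthase, was 3.27-fold lower (adjusted p = 0.0164), a call lost without either CLP replicate or LMPP replicate 2.

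Some of these genes were higher in LMPP than in both HSC and CLP. The LMPP arrays serve in both comparisons that follow, so the values stand side by side, gene by gene. Over all genes, LMPP against HSC had calls in 2.94%. Wfdc17, a small secreted protein with a whey acidic protein domain, stood at 10.49 and 10.07 in LMPP and at 5.94 and 5.99 in HSC (19.9-fold higher in LMPP, adjusted p = 7.93e-07). In CLP it had 8.15 and 8.04, 4.54-fold lower than in LMPP (adjusted p = 0.000125), and its mean was 5.12 in ETP. Gria2, an AMPA glutamate receptor subunit, had 6.03 and 6.67 in LMPP, against 3.81 and 4.06 in HSC (5.33-fold higher in LMPP, adjusted p = 7.47e-05), and 4.81 and 4.85 in CLP (2.87-fold lower than in LMPP, adjusted p = 0.00317). Its HSC and CLP levels lie in the range of the olfactory receptor genes. Postn, a matrix protein, had 4.70 and 4.56 in CLP, against 5.71 and 6.68 in LMPP (2.95-fold lower, adjusted p = 0.0108), a call lost without either CLP replicate. In LMPP it was 3.49-fold higher than in HSC (adjusted p = 0.00251). Vldlr was 1.94-fold higher in LMPP than in HSC (adjusted p = 0.0112). Other genes low in CLP were higher in HSC than in LMPP. Rab38 averaged 8.62 in LMPP, against 9.90 in HSC, and Muc13 7.96 in LMPP, against 10.60 in HSC. Myct1 averaged 7.15 in LMPP, against 8.54 in HSC, and all 3 were called in that comparison (adjusted p = 0.00273, 0.000437 and 0.000646).

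Of 29 granule and receptor genes of myeloid cells 3 were called lower and 1 higher (median -0.06). Ctsg, the neutrophil protease cathepsin G, stood at 6.89 and 6.38 in CLP, against 8.79 and 8.45 in LMPP (3.96-fold lower, adjusted p = 0.00158), and Prtn3, proteinase 3, was 2.48-fold lower (0.00158). Csf3r, described above, lost its call without CLP replicate 1. Fcer1g, the signalling chain of Fc and natural killer receptors, stood at 8.60 and 8.44 in CLP, against 7.51 and 7.27 in LMPP (2.19-fold higher, adjusted p = 0.00194). Mpo, a granule peroxidase of neutrophils, had levels of 9.32 and 10.13 in CLP, against 10.46 and 10.64 in LMPP, and was not called (adjusted p = 0.178). Both CLP arrays thus held Mpo at an intensity well above the median of all probe sets. Elane, neutrophil elastase, stood at 5.18 and 5.12 in CLP and 5.13 and 5.26 in LMPP. Of 16 erythroid and megakaryocyte genes Car2 was called lower and Tfrc, the transferrin receptor, higher, with 10.64 and 10.57 in CLP, against 9.12 and 9.10 in LMPP (2.82-fold, adjusted p = 6.75e-05). Without LMPP replicate 1 the lower calls of that list numbered 2.

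Of 32 genes of plasmacytoid and other dendritic cells 6 were called higher in CLP and none lower (median 0.06). They were Blnk, Siglech, Cox6a2, Mpeg1, Irf8 and Id2, of which Blnk and Irf8 also stand in the B lineage lists. The calls of Irf8 and Id2 were lost when most of the single arrays were left out, and after median centring. Siglech, a sialic acid lectin of plasmacytoid dendritic cells, stood at 7.75 and 8.36 in CLP, against 5.85 on both LMPP arrays (4.61-fold, adjusted p = 0.000173). Cox6a2, a cytochrome oxidase subunit that these cells share with muscle, stood at 10.63 and 10.60 in CLP, against 8.58 and 8.36 in LMPP (4.43-fold, adjusted p = 2.56e-05). Mpeg1, the pore-forming perforin-2 of phagocytes, stood at 10.39 and 10.50 in CLP, against 8.86 and 8.73 in LMPP (3.14-fold, adjusted p = 0.000113). CLP replicate 2 had the higher Siglech and Irf8, while Cox6a2 and Mpeg1 were nearly equal between the CLP replicates. Other genes of the plasmacytoid type were close to LMPP: Tcf4, which encodes their main factor E2-2, differed by 0.07, Ccr9 by -0.10, Pacsin1 by 0.22 and Cd209d by -0.03. The 5 plasmacytoid markers measured averaged 7.18 and 7.28 in CLP, against 6.37 and 6.31 in LMPP, and the part of such cells in these values was not tested.

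Of 27 natural killer and innate lymphoid genes 3 were called higher and none lower (median 0.16). Klrd1, which encodes the CD94 receptor chain, stood at 8.70 and 8.17 in CLP, against 6.24 and 5.59 in LMPP (5.74-fold, adjusted p = 0.000689). Its level was also high in ETP, at a mean of 7.54. Id2, an inhibitor of E proteins that innate lymphoid and natural killer cells need, stood at 6.47 and 7.01 in CLP, against 5.96 and 5.72 in LMPP (1.87-fold, adjusted p = 0.0480), a call lost without any 1 array other than CLP replicate 1 and DN2, with array weights and after median centring. Fcer1g was the third. The 7 markers of mature natural killer cells averaged 5.02 and 4.78 in CLP and 4.80 on both LMPP arrays, with Ncr1, Klrb1c and Klre1 all under 4.30 in both populations.

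Of 22 genes of the T lineage 1 was called higher (median 0.02). Cd28, a costimulatory receptor, stood at 8.08 and 7.0 in CLP, against 6.04 and 5.66 in LMPP (3.23-fold, adjusted p = 0.0394), a call lost without CLP replicate 1 or any LMPP, ETP or DN3 array. Gata3, a factor of T and innate lymphoid cells, had 5.04 and 5.41 in CLP, against 5.68 and 5.57 in LMPP (95% interval of the log2 difference -0.88 to 0.07). In the Notch pathway limma called none of 23 genes. An unadjusted p under 0.05 was found for 2, both higher, a share near the 8.5% over all genes. Notch1, the receptor that starts the T lineage in the thymus, stood at 6.94 and 7.5 in CLP and at 7.02 and 7.21 in LMPP, and Hes1, a Notch target, at 6.58 and 6.72 in CLP, against 6.16 and 5.96 in LMPP (1.5-fold, adjusted p = 0.0520). Hes1 reached a mean of 8.23 in ETP and 8.40 in DN3. Of 10 E protein and Id genes Id2 was the 1 call, and of 17 Bcl2 family and death genes none was called, with 1 higher at an unadjusted p under 0.05. Bcl2 itself, which protects lymphocytes from death, had 9.14 and 9.43 in CLP and 9.15 and 9.25 in LMPP.

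Of 32 homing and adhesion genes 1 was called. Itga4, the alpha 4 integrin that holds progenitors in marrow, was higher, with 10.60 and 10.55 in CLP, against 9.84 and 9.91 in LMPP (1.63-fold, adjusted p = 0.0124), and that call was lost without any CLP or LMPP array. Cxcr4, the receptor for the marrow chemokine CXCL12, had 11.17 and 11.50 in CLP and 10.93 and 11.28 in LMPP, so the groups overlapped. Of 30 interferon-stimulated genes 1 was called lower and none higher (median -0.16), while 12 were lower and 1 higher at an unadjusted p under 0.05. The called gene, Ifitm1, a membrane protein that blocks virus entry, stood at 9.81 and 9.92 in CLP, against 10.83 and 11.08 in LMPP (2.13-fold lower, adjusted p = 0.00197), with -1.24 by its second probe set. Ier3, a stress-induced regulator of survival, was the 1 call among 24 immediate early and stress genes, with 6.67 and 6.49 in CLP, against 8.09 and 8.05 in LMPP (2.82-fold lower, adjusted p = 0.000242). Fos and Jun, which cell handling induces, differed by -0.05 and -0.03.

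All 35 measured genes of G2 and mitosis had a negative difference, also after centring and after a second quantile normalization, with a median of -0.40 and a range from -0.72 to -0.11, while 22 had an unadjusted p under 0.05. In limma 3 passed the adjusted threshold. Cenpf, a kinetochore protein, stood at 9.53 and 9.56 in CLP, against 10.20 and 10.31 in LMPP (1.63-fold lower, adjusted p = 0.0452). Ttk, a spindle checkpoint kinase, and Cdc25c, the phosphatase that starts mitosis, were 1.61-fold lower each (adjusted p = 0.0322 and 0.0361). The 3 calls became 1 without either ETP replicate and 0 without any CLP, LMPP or DN3 array. They numbered 1 with array weights, 0 after median centring and 9 after a second quantile normalization. Mki67, a marker of cycling cells, stood at 10.07 and 10.33 in CLP, against 10.51 and 10.71 in LMPP, and Top2a, a topoisomerase of dividing cells, at 11.34 and 11.39 in CLP, against 11.52 and 11.63 in LMPP. The mean level of the list was 8.80 and 9.04 in CLP, against 9.24 and 9.47 in LMPP. Of 31 genes of S phase none was called in limma, 5 were higher and none lower at an unadjusted p under 0.05, and the median was 0.07. Ccne2, a cyclin of S phase entry, had 9.22 and 9.14 in CLP, against 8.67 and 8.68 in LMPP (adjusted p = 0.0807). The difference between the 2 lists was not tested. Of 19 cyclins and CDK inhibitors none was called, 2 being higher at an unadjusted p under 0.05, and Ccnd2 differed by 0.00.

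Limma called no gene of 19 in glycolysis (median -0.26, with 7 lower and 1 higher at an unadjusted p under 0.05), of 22 in DNA methylation and Polycomb (median -0.04, none at an unadjusted p under 0.05) or of 26 in the TNF superfamily (median -0.09, 3 lower and 1 higher). The glycolysis gene with the largest absolute difference was Slc2a3, a glucose transporter, at 6.26 and 6.46 in CLP, against 6.92 and 7.18 in LMPP (log2 difference -0.69, adjusted p = 0.215).

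Set against the other populations as well, 53 genes (0.266%) were called higher in CLP than in each of LMPP, HSC, ETP and DN3. These 4 comparisons share the CLP arrays, and the comparisons with HSC, ETP and DN3 called 6.28%, 2.52% and 8.69% of all genes in either direction. The 53 include Ebf1, Blnk, Igll1, Vpreb3, Vpreb2, Cd79b, Foxo1 and Irf8 of the B lineage lists. Ebf1 averaged 4.35 in HSC, 4.35 in ETP and 4.33 in DN3 and had 4.40 in DN2, so the CLP arrays were the 2 with a high level among all 11. Siglech, Cox6a2, Mpeg1, Ly86, Gimap4, Gphn and Tfrc were also in this group. Il7r was in it with a smaller margin over DN3, which averaged 9.75, and Myl4 with a small margin over ETP, at 9.58. Rag1, Rag2 and Ly6d were not, since DN3 had means of 11.54, 9.08 and 10.62. The 53 became 34 without ETP replicate 1, 35 without DN3 replicate 1 or LMPP replicate 1 and 31 without LMPP replicate 2. In the other direction 14 genes (0.0702%) were lower in CLP than in each of these populations, among them Rab38, Muc13, Ikzf2 and Il12rb2.

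**Figure D4:**
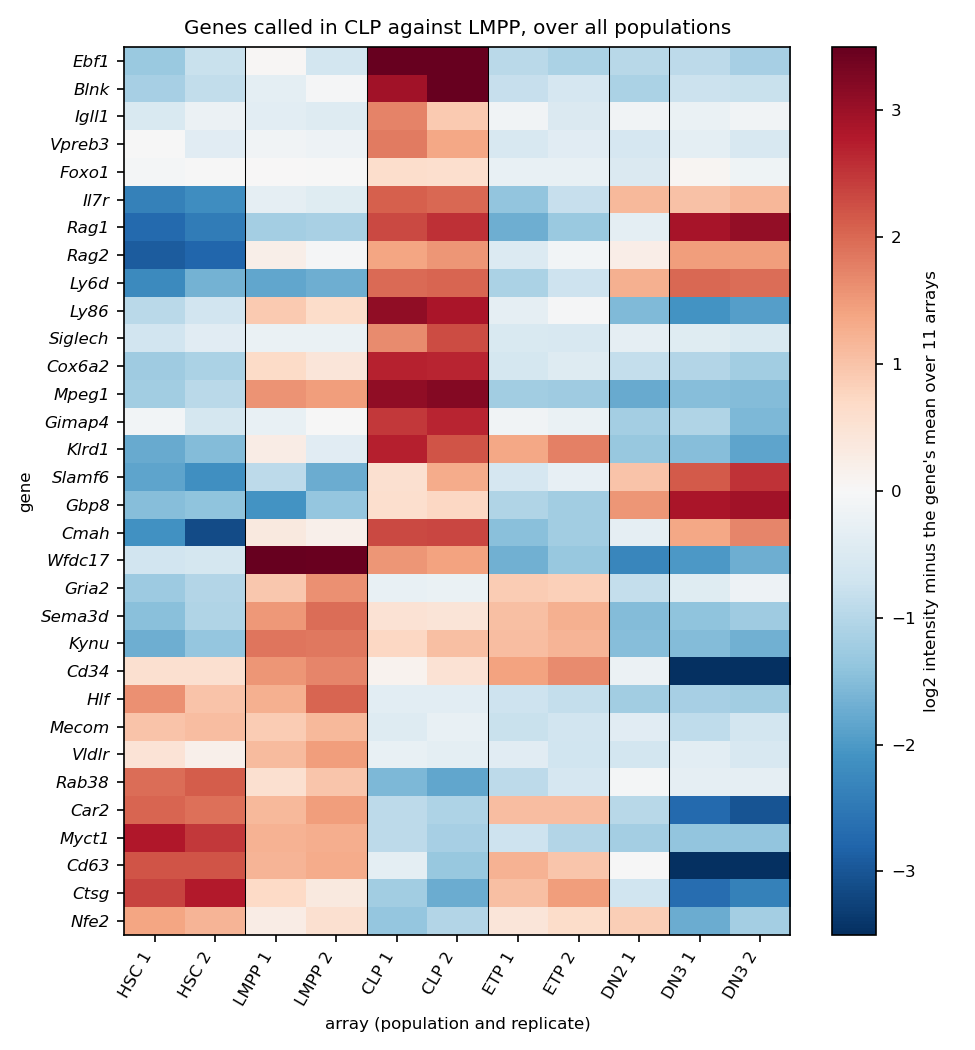
Level of 32 genes called in CLP against LMPP on each of the 11 arrays, as log2 intensity minus the gene's mean over the arrays (colour, limited to -3.5 and 3.5), with stages from HSC to DN3 and DN2 as 1 array. Ebf1 and Blnk are high in CLP and in no other population, Rag1, Rag2 and Ly6d are high in both CLP and DN3, and Wfdc17 is highest in LMPP.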

How the data were processed

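Biotin-labelled total RNA of each population was hybridised to 1 Affymetrix whole-transcript array per sample. The log2 values were made by the authors with RMA, per the submitters' processing notes, a method that removes background, equalises the quantiles of the arrays and combines the probes of a set. Neither the RMA version nor the genome build was stated in the labels. Array medians lay between 6.01 and 6.12, and precision is limited by having 2 arrays per population. Groups followed the sample titles.

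Of 35556 probe sets, 21789 had 1 gene symbol in the annotation given, 1621 several and 12146 none, and only the first were used; the RefSeq table held the Entrez number of 21698. Where a gene had several probe sets (999 genes) the one with the highest mean was taken, which left 19938 genes. The test was limma 3.58.1 in R 4.3.3, two-sided, with 6 group means over all 11 arrays (5 residual degrees of freedom), so the other populations helped to estimate the spread and the lone DN2 array was assumed to vary like the rest. Calls needed a Benjamini-Hochberg adjusted p under 0.05 over all genes, and intervals are limma's 95% intervals. The fit was also run on simulated data with independent noise on each array, which cannot test for effects that arrays share. RefSeq promoters (GRCm38.p6) were held for 15614 of the genes. Other work used Python 3.11.15, pandas 2.3.3 and matplotlib 3.10.9.

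The comparison, the 25 gene lists, the markers and the rule for named genes were chosen with earlier results of these data known. The rule took the 20 highest and 20 lowest calls (no predicted genes, receptor segments, histones or olfactory receptors), up to 4 called members of each list or its largest difference where none was called, the markers of CLP, LMPP, committed pro-B and plasmacytoid dendritic cells, and a panel of 14 genes, of which Tcf7 was not analysed here. Other list members named for comparison were chosen after their values were seen. Alternatives were other filters, normalizations, spread models, thresholds and sets of arrays, the replicate number as a block, and leaving out each array.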

Additional observations from a re-analysis of the deposited data

How the results depend on the processing

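Against 228 genes called (120 higher and 108 lower in CLP, 53 higher than in each of LMPP, HSC, ETP and DN3), the counts were 67, 43 and 24 with the CLP and LMPP arrays fitted alone, and 117, 71 and 46 with the marrow arrays alone, fits that leave fewer arrays to estimate the spread and give no value for the 53. An adjusted p under 0.01 left 104, 63, 41 and 29, and at least 2-fold left 136, 78, 58 and 32. Median centring gave 66 lower, and its other counts, like those under array weights, a trend with a robust prior, the mean of probe sets, a second quantile normalization and filters at a level of 6 or at the median (11862 and 9969 genes kept), stayed within 1.5 times. Leaving out 1 array gave 98 to 257 calls, 61 to 134 higher, 37 to 123 lower, and 31 to 60 higher than in each of the 4 populations named; the cause was not tested. Over 199 genes that are named or stand in a family counted here, 475 of 4506 alternative values lost the call, 25 gained one, and 51 changed sign, none of them with a call under either setting. The labels number replicates in every population but tie no number to an animal or day. Deviations of same-numbered CLP and LMPP arrays correlated at 0.28 across genes, with -0.26 to 0.12 for the other pairs of populations, and the replicate block gave 216 calls (114 higher, 102 lower, 54 higher than in each of the 4). It ended the calls of Art4, B3gnt2, Cd28, Ceacam1, Id2, Il31ra, Lmo2, Meis1 and Prkcb and no other call among these genes. A planned count of genes lower in CLP than in LMPP and lower in LMPP than in HSC is not given, since both comparisons share the LMPP arrays.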

Other observations

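Several gene families among the calls lie outside the lists above. They were chosen after their values were seen, and their counts are a description with no test of the family. Of 8 measured Gimap genes, GTPases of lymphocytes, 3 were called higher in CLP: Gimap4, Gimap7 (10.09 and 10.28 in CLP, against 9.10 and 9.11 in LMPP) and Gimap9 (10.43 and 10.44 in CLP, against 9.66 and 9.25 in LMPP). Of 7 guanylate binding proteins Gbp8 and Gbp9 were called higher, and Gbp9 stood at 7.59 and 7.11 in CLP, against 6.04 and 6.05 in LMPP. Of 8 measured members of the interferon-inducible HIN200 family Ifi209 and Ifi214 were called higher, with Ifi209 at 9.73 and 9.70 in CLP, against 8.15 and 8.25 in LMPP. Of 5 genes of cytoplasmic RNA sensing and the interferon response 4 were called lower in CLP, and Dhx58 was not called. In the list of 30 interferon-stimulated genes above 1 was called, also lower (3.33%, against 1.14% of all genes). Ddx58 (RIG-I) stood at 7.53 and 7.85 in CLP, against 8.53 on both LMPP arrays, and Ifih1 (MDA5) at 7.49 and 7.35 in CLP, against 8.10 and 8.20 in LMPP. Parp12 stood at 6.43 and 6.49 in CLP, against 7.17 and 7.5 in LMPP, and Slfn9 was the fourth. Gimap4, Gbp8, Gbp9 and Ifi209 kept their calls whichever array was left out. The others lost theirs without LMPP replicate 2, and also without CLP replicate 2; Gimap9, Ifi214, Parp12, Ifih1, Slfn9 and Ddx58 lost it without CLP replicate 1, Gimap7, Ifih1, Slfn9 and Ddx58 without LMPP replicate 1, and Ddx58 without either DN3 replicate.

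In other families, also chosen after their values were seen, members were called in both directions. The adaptor Lcp2 (SLP-76) stood at 7.14 and 7.43 in CLP, against 7.93 and 8.28 in LMPP (limma adjusted p = 0.0424), while its relatives Blnk and Clnk were higher, Clnk at 7.79 and 7.38 in CLP, against 6.49 and 6.61 in LMPP (0.00924). Among AMPA receptor subunits Gria3 stood at 9.92 and 9.88 in CLP, against 8.89 and 8.81 in LMPP (2.07-fold higher, limma adjusted p = 0.00221), and Gria2 was lower. Of 8 measured members of the protein kinase C family 2 were called higher, Prkca and Prkcb, and Prkcq was called lower. Prkca stood at 7.46 and 7.69 in CLP, against 6.22 and 6.49 in LMPP (2.33-fold higher), Prkcb was 1.58-fold higher, and Prkcq, the isoform of T cell receptor signalling, stood at 6.18 and 6.72 in CLP, against 7.60 and 7.77 in LMPP (2.35-fold lower). Of the adaptor Grap2 (GADS) and 4 other signalling genes, Grap2 was called higher (2.58-fold) and Dapp1 and Vav3 lower (2.35-fold and 1.79-fold). Of 9 measured eicosanoid and glutathione enzymes Mgst2 was called higher (2.29-fold) and Tbxas1, Mgst1 and Pla2g4a lower (3.27-fold, 2.45-fold and 1.83-fold), and without LMPP replicate 2 none of these 4 was called. Of 7 enzymes of sialic acid and glycan chains 6 were called higher and Gcnt2 lower, and without LMPP replicate 2 only Cmah of the 6 was called. All 7 held a call, so this count is not a share of such enzymes, and 1.14% of all genes were called. Related enzymes outside the 7, among them B4galt1 (log2 difference 0.494) and B3gnt5 (-0.203), were not called. St6gal1, a sialyltransferase, stood at 6.79 and 7.15 in CLP, against 5.79 and 5.65 in LMPP. Cybb, the catalytic subunit of the phagocyte NADPH oxidase, stood at 5.81 and 6.29 in CLP, against 4.60 and 4.75 in LMPP, and Trem1 at 5.92 and 6.03 in CLP, against 4.68 and 4.61 in LMPP. Gria3, Gria2, Prkca, Grap2, Dapp1, Cybb and Trem1 kept their calls whichever array was left out. Lcp2 lost its call without any CLP, LMPP, ETP or DN3 array, Clnk without CLP replicate 1 or either LMPP replicate, Prkcq without CLP replicate 1 or any LMPP or DN3 array, Prkcb without any CLP, LMPP, HSC or DN3 array, and Vav3 without any CLP, LMPP or DN3 array. Of the eicosanoid enzymes Mgst2 lost its call also without CLP replicate 1, Tbxas1, Mgst1 and Pla2g4a without either CLP replicate, Mgst1 and Pla2g4a without LMPP replicate 1, and Mgst1 without either DN3 replicate. Median centring ended the calls of Lcp2, Prkcq, Vav3, Mgst1, Ddx58 and Slfn9.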
